A study of Mus musculus with 4 samples.

Results

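The genes described here encode the central parts of JAK-STAT signalling, the kinases JAK1, JAK2, JAK3 and TYK2, the transcription factors STAT3, STAT5A and STAT5B, and the feedback inhibitors SOCS2, SOCS3 and CISH. They were chosen by symbol, with earlier results of these data known, and all 10 were found among the 19354 genes of the deposited matrix. HSCs (LSK FLT3- CD48- CD150+ cells of bone marrow) came from mice aged 8 to 16 weeks that carried *Mx1-Cre* with either wild-type *Id2* (*Id2+/+*, 14 mice) or floxed *Id2* alleles (*Id2Fl/Fl*, 15 mice). All mice of both genotypes had received pIpC, an interferon inducer that turns on *Mx1-Cre*, 2 weeks before the cells were taken, and the deleted group is called *Id2*Δ/Δ. Cells were pooled over mice in 2 experiments, and each genotype gave 2 RNA-Seq libraries, titled A and B and numbered here as replicates 1 and 2. The labels do not say which experiment a letter or number stands for. *Mx1-Cre* responds to interferon in many cell types, so deletion need not be limited to HSCs, and both genotypes shared the interferon inducer.

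A cytokine receptor without kinase activity of its own binds a JAK kinase at its inner face, and ligand binding brings the kinases together so that they phosphorylate each other, the receptor and the STAT proteins. Phosphorylated STATs pair, enter the nucleus and bind DNA at the palindrome TTCNNNGAA. Genes for SOCS proteins and CISH are among their targets, and these proteins then bind the receptor or the kinase and end the signal. In blood-forming cells this pathway carries signals for survival, self-renewal and lineage output.

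Values are on the log2 CPM scale, where CPM gives the reads of a gene scaled to the same total in every library. The deposited values were quantile-normalized, and a difference of 1 on this scale is a 2-fold change. Depth, read from the steps of the low values, was approximately 14500000 to 18200000 reads per library. For the targeted gene *Id2*, 93 and 98 reads were recovered from *Id2+/+* HSCs and 0 from either *Id2*Δ/Δ library. All 9 HSC markers in a list with *Kit*, *Ly6a* and *Slamf1* were listed, whereas 4 of 6 B-cell markers and 5 of 6 T-cell markers had no row. Of the genes whose proteins were gated out, *Flt3* was at 5.47 to 5.63 log2 CPM and *Cd48* was lower, at 1.40 to 3.04. Neutrophil markers summed to 141 and 51.9 CPM in *Id2+/+* replicates 1 and 2, and to 108 and 25.7 CPM in *Id2*Δ/Δ replicates 1 and 2. Whether fewer cells of a type or less RNA per cell lies behind a value cannot be told apart in pooled cells.

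Between genotypes, no member passed an adjusted p-value of 0.05. *Stat5b* and *Jak1* were the members with both *Id2*Δ/Δ libraries below both *Id2+/+* libraries, *Stat3* had nearly the same value in every library, and the remaining 7 overlapped. *Socs3* and *Cish* had the widest spread of the members, but their high libraries were replicate 2 of both genotypes. In a comparison of replicate numbers *Socs3* was called, at 1.70 log2 higher in replicate 2, a 3.25-fold difference.

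**Figure D1:**
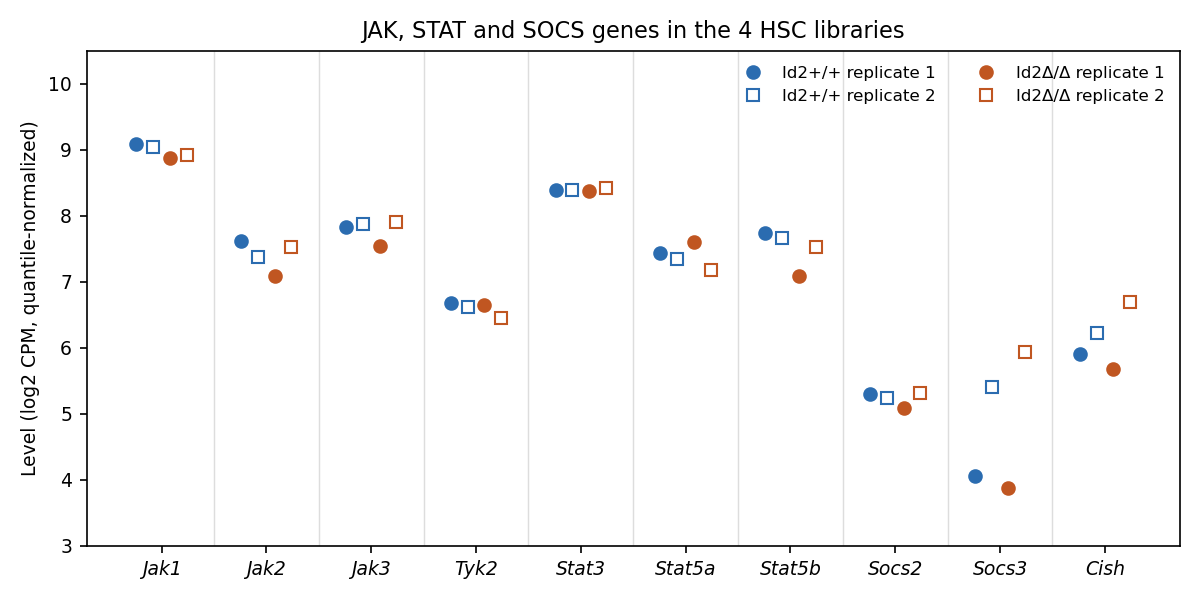
Level of each of the 10 members in the 4 HSC libraries, in log2 CPM; filled symbols are replicate 1 and open symbols replicate 2, with *Id2+/+* in blue and *Id2*Δ/Δ in orange. *Stat3* stays within 0.05 over all libraries, whereas both open symbols lie above both filled ones for *Socs3*, with a range of 2.05.

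Among the kinases, *Jak1*, which serves the interferon and gp130 receptor families, was the most abundant member. It was at 9.08 and 9.04 log2 CPM in *Id2+/+* replicates 1 and 2 and at 8.88 and 8.92 in the *Id2*Δ/Δ replicates. Both *Id2*Δ/Δ libraries were lower, by a fitted log2 difference of -0.16 (standard error 0.10, 95% interval -0.38 to 0.07, adjusted p = 0.910, limma with the Benjamini-Hochberg method). *Jak2*, the kinase of the erythropoietin receptor, was at 7.61 and 7.37 in *Id2+/+* and 7.09 and 7.53 in *Id2*Δ/Δ replicates 1 and 2. Its lowest library was *Id2*Δ/Δ replicate 1, the genotypes overlapped, and the difference was -0.18 (standard error 0.17, adjusted p = 0.916, limma). Without *Id2*Δ/Δ replicate 1 the log2 difference of *Jak2* was 0.04, and without *Id2*Δ/Δ replicate 2 it was -0.40.

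*Jak3*, which pairs with the common gamma chain of the lymphoid interleukin receptors, was at 7.83 and 7.88 log2 CPM in the *Id2+/+* libraries. In the *Id2*Δ/Δ libraries it was at 7.54 and 7.90. One low library, *Id2*Δ/Δ replicate 1, thus carried its log2 difference of -0.14 (standard error 0.14, 95% interval -0.47 to 0.20, adjusted p = 0.917, limma), which was 0.04 without that library. *Tyk2*, the partner of JAK1 at the type I interferon receptor, was at 6.67 and 6.62 in *Id2+/+* and at 6.65 and 6.45 in *Id2*Δ/Δ libraries. Here the low library was *Id2*Δ/Δ replicate 2, and the log2 difference was -0.09 (standard error 0.14, adjusted p = 0.934, limma), or 0.01 without *Id2*Δ/Δ replicate 2. All 4 kinase genes had a negative difference, but the intervals of all 4 included 0. The identifiers that follow are those of the deposited matrix, and GENCODE M21 lists *Jak2* as ENSMUSG00000024789.13. In GENCODE M21 on GRCm38 the kinase genes were placed as *Jak1* (ENSMUSG00000028530.14) at chr4:101152367-101265282, *Jak2* (ENSMUSG00000024789.12) at chr19:29251828-29313080, *Jak3* (ENSMUSG00000031805.17) at chr8:71676296-71690575 and *Tyk2* (ENSMUSG00000032175.11) at chr9:21104068-21131243, and the inhibitors as *Socs2* (ENSMUSG00000020027.18) at chr10:95385362-95417180, *Socs3* (ENSMUSG00000053113.3) at chr11:117966079-117970047 and *Cish* (ENSMUSG00000032578.7) at chr9:107296026-107302784.

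*Stat3*, the factor used by gp130 receptors and by the G-CSF receptor, was at 8.39 log2 CPM in both *Id2+/+* libraries and at 8.37 and 8.42 in *Id2*Δ/Δ replicates 1 and 2. These values overlapped, and the log2 difference was 0.01 with a 95% interval of -0.23 to 0.24 (adjusted p = 0.994, limma), which leaves room for a change of either sign within those bounds.

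*Stat5a* and *Stat5b* encode closely related proteins that act downstream of JAK2, and they had different values. *Stat5b* was at 7.74 and 7.66 log2 CPM in *Id2+/+* replicates 1 and 2 and at 7.08 and 7.53 in the *Id2*Δ/Δ replicates. Both *Id2*Δ/Δ libraries were below both *Id2+/+* libraries, with replicate 1 well below replicate 2. The log2 difference of -0.39 (standard error 0.16, 95% interval -0.77 to -0.01) had an unadjusted p of 0.0447 and an adjusted p of 0.910 (limma). It was -0.17 without *Id2*Δ/Δ replicate 1 and -0.61 without *Id2*Δ/Δ replicate 2, with unadjusted p-values of 0.148 and 0.00212, and without *Id2+/+* replicate 1 or 2 the unadjusted p was 0.193 or 0.117. *Stat5a*, in contrast, was at 7.44 and 7.34 in *Id2+/+* and at 7.60 and 7.18 in *Id2*Δ/Δ libraries. Its highest and its lowest value were both in *Id2*Δ/Δ libraries, and the genotype difference was 0.00 (standard error 0.16, 95% interval -0.37 to 0.37, adjusted p = 1.00, limma).

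The Stat genes lie side by side on chromosome 11 of GRCm38, with *Stat5b* from 100780731 to 100850724 on the minus strand, *Stat5a* from 100859351 to 100885169 on the plus strand and *Stat3* from 100885098 to 100939540 on the minus strand. *Stat5a* and *Stat3* share 72 bases at their ends, and *Stat5a* and *Stat5b* are paralogs, so reads that the authors' counting could give to either gene make the split uncertain. On the log2 scale *Stat5a* minus *Stat5b* was 0.52 in *Id2*Δ/Δ replicate 1. It was -0.35 in the other *Id2*Δ/Δ library and -0.30 and -0.32 in *Id2+/+* HSCs, so that the first library stood apart and was the only one with more *Stat5a* than *Stat5b*. Summed over both genes, the level was 387 and 363 CPM in *Id2+/+* and 329 and 330 CPM in *Id2*Δ/Δ libraries. The sum, chosen after the data were seen, had a log2 difference of -0.19 (unadjusted p = 0.108, adjusted p = 0.909, limma).

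**Figure D2:**
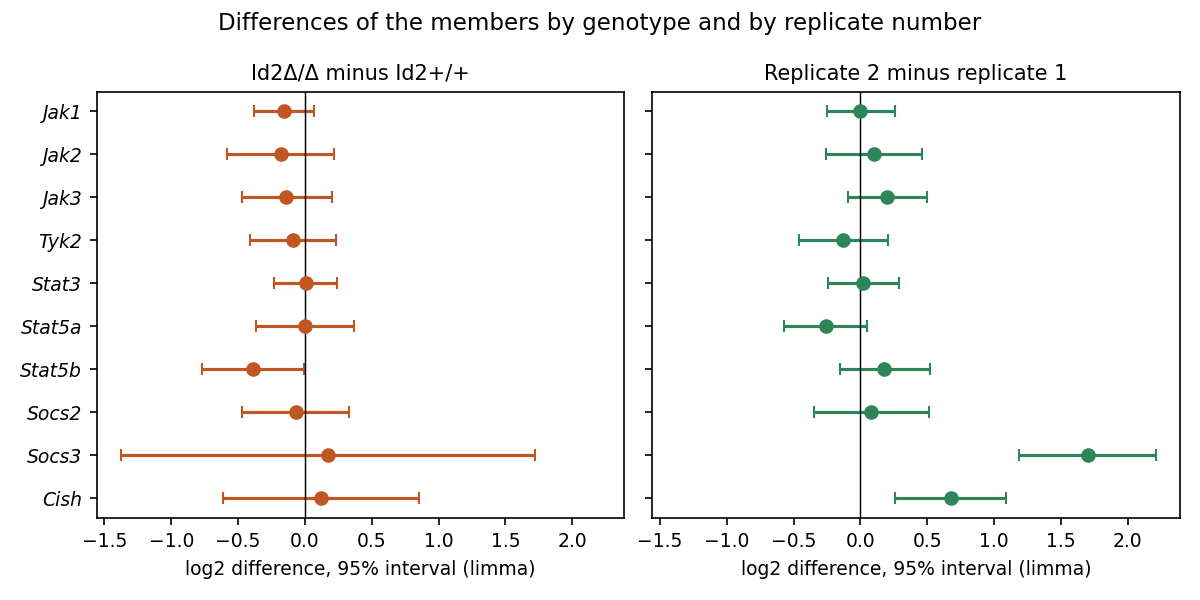
Log2 differences of the 10 members with their 95% intervals from limma, for *Id2*Δ/Δ minus *Id2+/+* on the left and replicate 2 minus replicate 1 on the right. In the left panel the *Stat5b* interval alone ends below 0, at -0.01, and in the right panel those of *Socs3* (1.19 to 2.21) and *Cish* (0.26 to 1.09) lie above 0.

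Of the feedback inhibitors, *Socs2*, a brake on growth hormone receptor and STAT5 signals, was at 5.30 and 5.24 log2 CPM in *Id2+/+* and at 5.09 and 5.32 in *Id2*Δ/Δ libraries. The genotypes overlapped and the log2 difference was -0.07 (standard error 0.17, adjusted p = 0.957, limma). *Cish*, a STAT5-induced inhibitor, was at 5.90 and 6.23 in *Id2+/+* replicates 1 and 2 and at 5.67 and 6.70 in the *Id2*Δ/Δ replicates. Replicate 1 was the lower library in both genotypes, and the *Id2*Δ/Δ values enclosed the *Id2+/+* values. *Socs3*, the main inhibitor of gp130 and G-CSF receptor signals, was at 4.06 and 5.41 in *Id2+/+* replicates 1 and 2 and at 3.88 and 5.93 in the *Id2*Δ/Δ replicates. The replicate 1 libraries, with 237 and 263 reads (95% exact Poisson intervals 207.8 to 269.2 and 232.2 to 296.8, for counting error only), lay far below the replicate 2 libraries, which held 42.6 and 61.1 CPM against 16.7 and 14.8 CPM.

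With such a spread the genotype differences of these genes were poorly fixed. For *Socs3* the log2 difference was 0.17 (standard error 0.66, 95% interval -1.38 to 1.72, adjusted p = 0.972), and for *Cish* it was 0.12 (standard error 0.31, 95% interval -0.61 to 0.85, adjusted p = 0.958, both limma). Leaving out a library in turn moved *Socs3* from -0.85 to 1.20 and *Cish* from -0.39 to 0.64. Within replicate 1, *Socs3* and *Cish* were lower in *Id2*Δ/Δ, by differences of -0.18 and -0.23, and within replicate 2 they were higher, by 0.52 and 0.47. These within-number differences rest on a single library each and were not tested.

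Read as a group, 6 of 10 members had lower and 4 higher fitted values in *Id2*Δ/Δ HSCs. Their median log2 difference was -0.080, beside 0.011 over all 15895 genes tested. The median was 0.037 without *Id2*Δ/Δ replicate 1 and -0.249 without *Id2*Δ/Δ replicate 2. At an unadjusted p under 0.05 there was 1 member, *Stat5b*, against 4.67% of all genes in either direction and 2.95% lower in *Id2*Δ/Δ, and at an adjusted p under 0.05 there were 0 members, against 0% of all genes. No overlap between genotypes was seen for 2 members, against 34.8% of all genes. With 2 libraries a side, the smallest two-sided p that an exact permutation test can give is 0.333. *Id2*Δ/Δ replicate 1 was the lowest library for 8 of the 10 members, whereas it was the lowest for 30.2% of all genes tested. The exceptions were *Tyk2* and *Stat5a*, which were lowest in *Id2*Δ/Δ replicate 2. *Id2*Δ/Δ replicate 1 was also the highest library for 33.2% of all genes tested and for 1 member, *Stat5a*. Over all genes, both shares were the largest of any library. With each library corrected for transcript length the median over the members was -0.032 and the *Stat5b* difference -0.32 (unadjusted p = 0.0598).

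The comparison of replicate numbers asks how much of a member's variation was shared by the same-numbered libraries of both genotypes, fitted with genotype as a second term. *Socs3* was 1.35 higher on the log2 scale in replicate 2 than in replicate 1 of *Id2+/+*, which is 2.55-fold, and 2.05 higher in *Id2*Δ/Δ, which is 4.14-fold. The fitted difference was 1.70 (standard error 0.23, 95% interval 1.19 to 2.21, adjusted p = 0.00656, limma). This fit leaves 1 residual degree of freedom, so the standard error rests largely on the spread that limma takes from other genes. Across all genes 0.189% were called in this comparison, 30 of 15895, and *Socs3* was the 19th gene by p-value. Without the genotype term the adjusted p of *Socs3* was 0.0299.

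*Cish* differed in the same direction, by 0.33 in *Id2+/+* (1.26-fold) and by 1.03 in *Id2*Δ/Δ (2.04-fold). Its fitted difference of 0.68 (standard error 0.19, 95% interval 0.26 to 1.09) had an unadjusted p of 0.00375 and an adjusted p of 0.573 (limma), so it did not pass. *Socs3* and *Cish* were the 2 members with an unadjusted p under 0.05 here, against 5.88% of all genes. *Socs2* had no such difference, with -0.07 in *Id2+/+* and 0.23 in *Id2*Δ/Δ libraries and a 95% interval of -0.35 to 0.51. Of the kinases and STATs, *Jak3* was higher in both replicate 2 libraries, by a fitted 0.20, and *Tyk2* and *Stat5a* were lower, by -0.13 and -0.26, with adjusted p-values of 0.940, 0.981 and 0.880. Within *Id2+/+* and *Id2*Δ/Δ these differences were 0.05 and 0.36 for *Jak3*, -0.05 and -0.20 for *Tyk2* and -0.10 and -0.42 for *Stat5a*. In all, replicate numbers did not overlap for 5 of 10 members, against 32.9% of all genes.

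The start regions of *Socs3* and *Cish* are shown because these members varied most. Of the members that could be searched, only these held the STAT palindrome in their start region. RefSeq windows (GRCm38.p6) of 250 bases before to 50 after a start were searched for TTCNNNGAA, which reads the same on both strands. *Socs2* had no window and was not searched. Of the 9 members with a window, 2 held it, against 9.55% of all 27025 genes with a window. Among tested genes with a window the share was 8.17% of 10265. Counted over windows, of which a gene can have several, the share was 8.3% of 32851. Capitals mark the matches, and the sequences run 5′ to 3′ on the strand of the gene. The *Socs3* window begins 250 bases before the start, at chr11:117969367-117969616 on the minus strand, and that of *Cish* runs on to 20 bases after it, at chr9:107296409-107296678 on the plus strand.
*Socs3*: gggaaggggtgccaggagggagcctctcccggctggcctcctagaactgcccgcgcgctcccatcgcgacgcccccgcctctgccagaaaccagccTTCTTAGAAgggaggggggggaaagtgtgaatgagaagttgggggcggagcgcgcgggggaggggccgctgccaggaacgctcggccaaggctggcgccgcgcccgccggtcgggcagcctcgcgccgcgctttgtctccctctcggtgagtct
*Cish*: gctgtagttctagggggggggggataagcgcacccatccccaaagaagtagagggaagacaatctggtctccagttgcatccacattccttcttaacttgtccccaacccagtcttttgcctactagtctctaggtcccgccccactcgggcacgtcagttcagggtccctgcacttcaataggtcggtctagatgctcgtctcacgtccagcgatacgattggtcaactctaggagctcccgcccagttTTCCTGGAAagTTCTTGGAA
The match in *Socs3*, TTCTTAGAA, begins 154 bases before the RefSeq start. In *Cish*, TTCCTGGAA begins at base 1 and TTCTTGGAA at base 12 after the RefSeq start. Both printed stretches lie inside the bounds that GENCODE M21 gives these genes, so the starts of the 2 annotations differ. A match describes the letters of the window, and binding was not measured here.

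**Figure D3:**
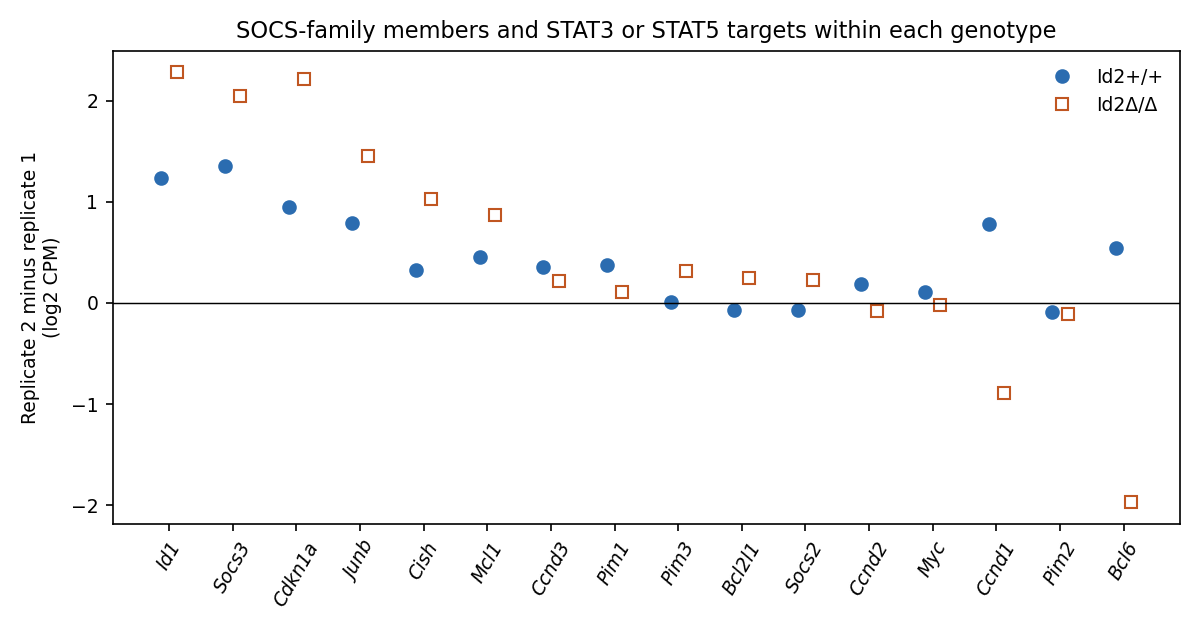
Replicate 2 minus replicate 1 in log2 CPM within each genotype, for *Socs2*, *Socs3*, *Cish* and 13 genes listed as STAT3 or STAT5 targets, ordered by the fitted difference. *Id1*, *Socs3*, *Cdkn1a* and *Junb* lie highest, with both genotypes above 0. Opposite signs are seen for *Bcl6* (0.54 in *Id2+/+* and -1.97 in *Id2*Δ/Δ) and *Ccnd1* (0.78 and -0.89). They are also seen, with smaller values, for *Ccnd2*, *Myc*, *Bcl2l1* and *Socs2*.

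Genes listed as STAT3 or STAT5 targets were read in the same comparison. Of 13 tested, 1 was called, and 5 had an unadjusted p under 0.05, all higher in replicate 2, against 3.49% of all genes in that direction. The list was written with earlier results of these data known, so this share is not an independent comparison. The genes that follow were named after their values were seen, apart from *Mcl1*. *Junb*, an AP-1 factor, was called and was at 8.22 and 9.01 log2 CPM in *Id2+/+* replicates 1 and 2 and at 7.97 and 9.42 in *Id2*Δ/Δ (difference 1.12, standard error 0.15, adjusted p = 0.00642, limma). *Mcl1*, a survival gene of the BCL2 family, was at 8.58 and 9.04 in *Id2+/+* and at 8.33 and 9.20 in *Id2*Δ/Δ replicates 1 and 2 (difference 0.66, adjusted p = 0.116). *Cdkn1a*, which encodes the cell-cycle inhibitor p21, and *Id1* had differences of 1.58 and 1.76 with adjusted p-values of 0.337 and 0.731. *Ccnd3*, a D-type cyclin, was the other gene of the 5, with a difference of 0.29. *Pim1*, *Pim2* and *Bcl2l1*, classical STAT5 targets, had differences of 0.24, -0.10 and 0.09, with 95% intervals that included 0. Thus *Junb* and *Socs3* were the genes of both lists that passed, and the median over the 13 targets was 0.16, beside -0.010 over all genes. The rise was not confined to these lists, as 27 of all 15895 genes were called higher in replicate 2 (0.17%). *Klf6*, on neither list, was higher by 2.14 (adjusted p = 1.1e-05, limma).

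Neutrophil markers moved with the replicate number in the opposite direction. All 7 tested were lower in both replicate 2 libraries, with a median log2 difference of -1.74 and unadjusted p-values under 0.05, against 2.4% of all genes in that direction. Of these, *S100a8*, *Ngp* and *S100a9* were called, the last named after its values were seen. *S100a8* was at 5.18 and 3.79 log2 CPM in *Id2+/+* replicates 1 and 2 and at 4.75 and 2.04 in the *Id2*Δ/Δ replicates. The libraries with more neutrophil RNA were therefore those with less *Socs3* and *Cish*, and the part of these cells in the *Socs3* result was not tested. The granulocyte marker *Ly6g* had no row. Monocyte and macrophage markers had a median of -0.23 over the 4 tested, with summed levels of 200 to 267 CPM. Erythroid markers summed to 29.1 to 42.5 CPM, B-cell markers to 33.6 to 51.0 CPM and T-cell markers to 1.38 to 3.40 CPM.

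Between genotypes, the STAT targets gave no call. Of 13, 9 had higher and 4 lower values in *Id2*Δ/Δ HSCs. Their median log2 difference was 0.095, with 0 genes at an unadjusted p under 0.05. *Ccnd2*, the most abundant of them, was at 8.73 and 8.92 log2 CPM in *Id2+/+* and at 8.96 and 8.88 in *Id2*Δ/Δ libraries, which overlapped. *Myc* was at 7.53 and 7.64 in *Id2+/+* and at 7.81 and 7.80 in *Id2*Δ/Δ libraries, a difference of 0.22 (standard error 0.11, adjusted p = 0.910, limma) without overlap, and was named after its values were seen.

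**Figure D4:**
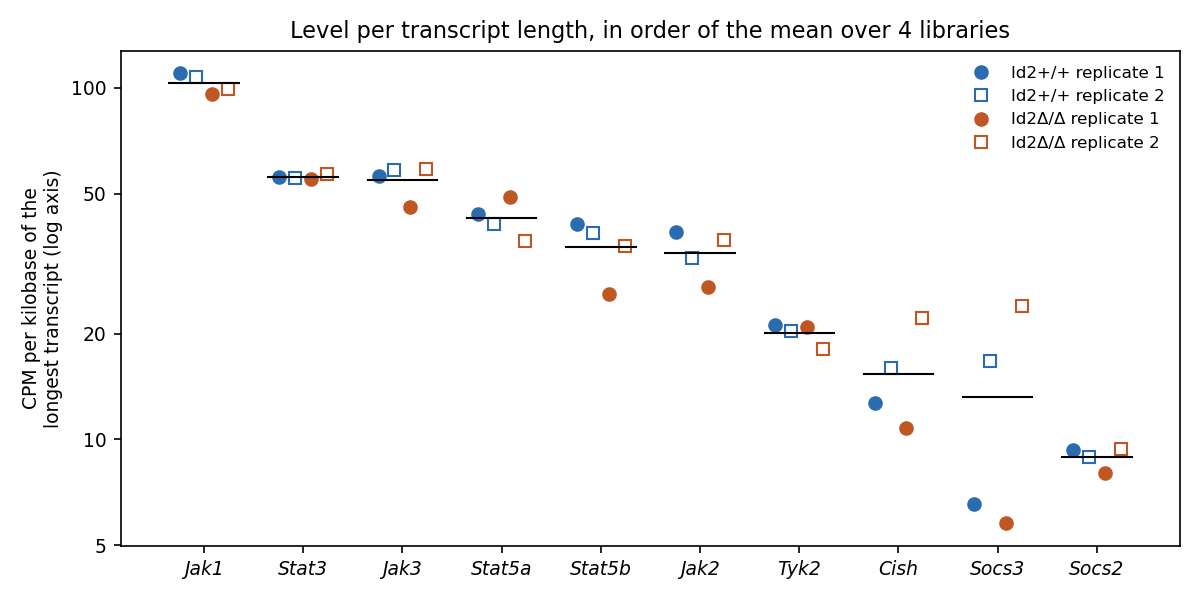
CPM per kilobase of each member's longest transcript, on a log axis, in the 4 libraries (symbols as for the plot of levels by library), with the mean over libraries as a line. *Jak1*, with 96.3 to 110 CPM per kilobase, lies above every other member in all libraries, and the 3 feedback inhibitors have the lowest means on this choice of transcript.

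Levels of different genes were compared per length, as CPM per kilobase of the longest GENCODE transcript. *Jak1* was highest with a mean of 103 (range 96.3 to 110), followed by *Stat3* with 55.7 (54.9 to 56.8), *Jak3* with 54.8 (45.9 to 58.9), *Stat5a* with 42.5 (36.6 to 49.0), *Stat5b* with 35.3 (26.0 to 40.9) and *Jak2* with 33.9 (27.2 to 38.9). Each of the neighbours from *Stat3* to *Jak2* overlapped the next, so the order of neighbours was not resolved. Genes further apart did separate, as *Stat3* lay above *Stat5a*, *Stat5b* and *Jak2* in all libraries, and *Jak3* above *Stat5b* and *Jak2*. *Tyk2*, with 20.1 (18.1 to 21.1), was separate from *Jak2* but overlapped *Cish*, with 15.4 (10.8 to 22.1). *Socs3* followed with 13.2 (5.78 to 23.9) and *Socs2* with 8.91 (8.03 to 9.40). Per kilobase of the longest coding transcript, which is shorter for *Cish* and *Socs2*, these were at 25.4 (17.9 to 36.5) and 17.0 (15.3 to 17.9). *Cish* then had a higher mean than *Tyk2* and *Socs2* a higher mean than *Socs3*, but both pairs overlapped, so the order within each pair was not resolved. *Tyk2* lay above *Socs2* in all libraries on either choice of transcript.

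The rest of the pathway is given from lists written with the members, when earlier results of these data were known. The ligands come first. Of 23 cytokine genes, 10 had a row and 7 were tested, and the genes for thrombopoietin (*Thpo*), IL-6 (*Il6*) and interferon gamma (*Ifng*) were among those not listed. The most abundant were *Il15* and *Il12a*, with genotype differences of -0.12 and 0.20 on the log2 scale and overlapping libraries.

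Of 33 receptor chains that couple to JAKs, 24 were tested, 7 with higher and 17 with lower values in *Id2*Δ/Δ HSCs, and 0 were called. *Ifngr1*, a chain of the interferon gamma receptor, was at 7.17 and 6.94 log2 CPM in *Id2+/+* and at 6.82 and 6.94 in *Id2*Δ/Δ libraries (difference -0.17, adjusted p = 0.910). The median over the receptors was -0.089, or -0.061 after correction for transcript length.

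Other STAT and SOCS genes, 9 in all, gave 3 higher and 6 lower values and a median genotype difference of -0.035, with 0 at an unadjusted p under 0.05. *Stat6*, the IL-4 factor, was at 7.62 and 7.61 log2 CPM in *Id2+/+* and at 7.26 and 7.45 in *Id2*Δ/Δ libraries, a difference of -0.26 (95% interval -0.55 to 0.02, adjusted p = 0.910, limma). The *Id2*Δ/Δ libraries of *Stat6* lay below its *Id2+/+* libraries without passing.

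Brakes on the pathway outside the SOCS family, such as phosphatases, PIAS proteins and CBL ligases, gave 2 higher and 9 lower values in *Id2*Δ/Δ HSCs among 11 tested. Their median was -0.19, or -0.11 after correction for transcript length, and 0 had an unadjusted p under 0.05. Both *Id2*Δ/Δ libraries were below both *Id2+/+* libraries in 6 of the 11, against 15.8% of all genes in that direction. *Ptprc*, which encodes the phosphatase CD45, was at 9.11 and 9.20 log2 CPM in *Id2+/+* and at 9.04 and 8.88 in *Id2*Δ/Δ libraries (difference -0.19, adjusted p = 0.910, limma). *Ptpn6*, which encodes SHP-1, was at 8.41 and 8.33 in *Id2+/+* and at 8.24 and 8.39 in *Id2*Δ/Δ libraries, which overlapped.

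Interferon response genes, read because every mouse had received pIpC, were evenly split between genotypes, 7 of 14 having positive differences, with a median of -0.026. *Irf1* and *Irf9*, the most abundant, had differences of -0.21 and 0.13 (adjusted p-values 0.910 and 0.916, limma). HSC markers had 3 higher and 6 lower values in *Id2*Δ/Δ HSCs among 9 tested, with a median of -0.060. *Slamf1* (0.26), *Hoxb5* (0.25) and *Ly6a* (0.14) were the higher genes, and 3 of the 9 had an unadjusted p under 0.05, all lower, against 2.95% of all genes in that direction. These were *Kit* (-0.63), *Fgd5* (-0.57) and *Hlf* (-0.30), each with an adjusted p of 0.910, and their movement beside *Stat5b* was not tested. Megakaryocyte markers had 5 higher and 1 lower value among 6 tested, with a median of 0.21. *Pf4* and *Gp1bb* were higher in both *Id2*Δ/Δ libraries, by 0.65 and 0.75, with an adjusted p of 0.910 each, and *Gp9*, *Itga2b* and *Vwf* had differences of 0.37, 0.06 and 0.00. *Ppbp*, the exception, was lower in both *Id2*Δ/Δ libraries by a difference of -0.39 (adjusted p = 0.924, limma).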

How the data were processed

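RNA-Seq was performed on 4 libraries of pooled HSCs, 2 per genotype. The authors deposited a matrix of log2 CPM values for 19354 genes. The unit was read from the values, whose columns sum to 999980 to 999996 CPM after being taken back from log2, and 88.4% of ranks differ by less than 0.1 between libraries, the mark of quantile normalization. The submitters' processing notes name CASAVA 1.8.4, Trimmomatic 0.30, TopHat2 2.0.8, RSEM and STAR with the builds mm9 and NCBIM37. Their roles, the gene filter, strand use and the test are not given in the sources used here. Quantile normalization forces equal distributions and can move single genes.

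Reads were recovered below 32 CPM (62.1% of values) from the order of distinct values. A count of 0 allows up to 3 reads, or 0.165 to 0.207 CPM. The 15895 genes averaging 1 CPM or more were tested on the deposited scale, without a pseudocount, with limma 3.58.1 in R 4.3.3 (lmFit, eBayes with trend, two-sided, Benjamini-Hochberg over all tested genes, called under 0.05). Genotype was the only term between genotypes, and replicate numbers were tested with genotype as a second term. Since mice were pooled and the source of a library within the 2 experiments is not labelled, p-values measure the spread between these libraries. In both comparisons limma draws the spread of each gene towards that of other genes of like level, so p-values do not rest on a gene's own spread alone. The scripts were tested on simulated data.

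Lengths and places are those of GENCODE M21 on GRCm38, which is not a build in the notes, matched by identifier for 99.7% of genes. Length correction took off a natural spline with 5 degrees of freedom on log transcript length. Named were all members, the 2 most abundant tested genes of each other list and those with an unadjusted p under 0.05 between genotypes, and not every such gene is reported here. Members and lists were chosen with earlier results of these data known.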

Additional observations from a re-analysis of the deposited data

How the results depend on the processing

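Genotype differences were recomputed with a pseudocount of 1 CPM, median-ratio rescaling, no filter, a mean of at least 10 CPM, no intensity trend, length correction, the replicate number as a term, and each library left out in turn. None of these called a member. Of all genes, 1 was called with the replicate block and 1 with the replicate block and length correction, against 0 otherwise. The number of members at an unadjusted p under 0.05 was 0 with no filter, with no intensity trend and with length correction, and it ranged from 0 to 3 (the latter without *Id2*Δ/Δ replicate 2) with a library left out, against 1. The 3 were *Stat5b*, *Jak2* and *Jak3*, and without *Id2*Δ/Δ replicate 1 the only such member was *Cish*, higher by 0.64 (unadjusted p = 0.0199, adjusted p = 0.622). With 1 library left in a genotype, it was assumed to vary like the other genotype. Members without overlap ranged from 2 to 9 with a library left out, since 1 library against 2 overlaps less often by construction, and the median over members from -0.249 to 0.037. Single genotype differences ranged from -0.18 to -0.14 for *Jak1*, -0.40 to 0.04 for *Jak2*, -0.32 to 0.04 for *Jak3*, -0.19 to 0.01 for *Tyk2*, -0.02 to 0.03 for *Stat3*, -0.21 to 0.21 for *Stat5a*, -0.61 to -0.17 for *Stat5b*, -0.18 to 0.05 for *Socs2*, -0.85 to 1.20 for *Socs3* and -0.39 to 0.64 for *Cish*. Median-ratio rescaling turned *Stat3* to -0.01 and *Stat5a* to -0.02, and no cause was tested.

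By their labels the same-numbered libraries share only a number. Their deviations from the genotype means had a correlation of 0.059 over all tested genes and 0.144 over the 7377 genes averaging 32 CPM or more. With the replicate block the *Stat5b* difference of -0.39 had an unadjusted p of 0.0258 and an adjusted p of 0.800. Between replicate numbers, 17 genes were called without the genotype term, against 30, and *Socs3* was called with each alternative that allowed a test. Leaving out a library left no residual degree of freedom there, so those fits gave values only, from 1.35 to 2.05 for *Socs3*, 0.33 to 1.03 for *Cish*, -0.04 to 0.04 for *Jak1*, -0.24 to 0.44 for *Jak2*, -0.07 to 0.23 for *Socs2*, -0.00537 to 0.05 for *Stat3*, -0.08 to 0.45 for *Stat5b*, 0.05 to 0.36 for *Jak3*, -0.20 to -0.05 for *Tyk2* and -0.42 to -0.10 for *Stat5a*. Length correction turned *Jak1* to -0.04 and *Stat3* to -0.02, and the *Stat5a* and *Stat5b* sum was at -0.04.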
